A study of Rattus norvegicus with 12 samples.

Results

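The 10 genes described here encode growth factors of the PDGF, FGF and VEGF families and receptors for them. They were chosen by symbol, as Pdgfra, Pdgfrb, Pdgfa, Pdgfc, Pdgfd, Fgf2, Fgf7, Fgfr1, Vegfa and Vegfc, and all 10 were present among the 12271 genes of the deposited normalized count table. The cells were cultured cardiac fibroblasts from Sprague Dawley rats at postnatal day 2, unmodified apart from siRNA, which lowers the messenger RNA it matches. The 4 groups of 3 libraries differed in the siRNA they received, which was a negative control, targeted Yap, targeted Wwtr1 (the gene of TAZ), or targeted both genes, referred to as the double knockdown. Each target was addressed with 2 siRNAs at 25 nM, all groups were kept in DMEM with 15% fetal bovine serum according to the labels (the study's methods give a lower share), and cells were collected 48 h after transfection, also according to the labels (the methods count this time from a later change of medium). The siRNA field of the double knockdown samples names the Wwtr1 siRNAs only, and the design text of the series names cardiac myocytes where title, labels and methods name fibroblasts. According to the methods the replicates came from separate litters.

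Platelet-derived growth factors (PDGF) are secreted dimers that bind the receptor tyrosine kinases encoded by Pdgfra and Pdgfrb, and they are classical mitogens and attractants of fibroblasts and mural cells. PDGF-A and PDGF-C act mainly through the alpha receptor, and PDGF-B and PDGF-D mainly through the beta receptor. Fibroblast growth factors (FGF) signal through the FGFR kinases to the Ras and MAP kinase cascade, whose output is limited by feedback inhibitors of the Sprouty family. Vascular endothelial growth factors (VEGF) are made by many stromal cells and act on endothelial receptors. Vegfa drives blood vessel growth and is induced by low oxygen, and Vegfc is the principal growth factor of lymphatic vessels. Yap and TAZ do not bind DNA themselves and act largely through the TEAD transcription factors.

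The labels were first checked against the targeted genes. Yap1 stood at 3042, 3776 and 2984 normalized counts (read counts divided by a size factor per library) with negative siRNA, at 532, 576 and 625 under Yap siRNA, and at 713, 739 and 1474 in the double knockdown. Wwtr1 stood at 2364, 2565 and 2280 with negative siRNA, at 524, 550 and 637 under Wwtr1 siRNA, and at 818, 731 and 1056 in the double knockdown. Both targets were therefore lowered in every library labelled for them. In each double knockdown library both targets remained above every library of the matching single knockdown. Wwtr1 was higher than under Wwtr1 siRNA by a log2 value of 0.59 (limma, adjusted p = 0.00804). Yap1 was higher than under Yap siRNA by 0.67 (limma, adjusted p = 0.0623). The highest remaining level of both was in double knockdown replicate 3. That library also stood apart from its group, with a chi-square of its counts per gene of 120 and 124 against the other two, where no other pair of replicates exceeded 49.2. The libraries held 33.9 to 41.1 M recovered reads, with double knockdown replicates 2 and 3 the deepest. The summed level of 10 fibroblast markers was 2985870 to 3462090 normalized counts with negative siRNA, 3684390 to 3830190 under Yap siRNA, 2944260 to 3183210 under Wwtr1 siRNA and 2670730 to 3870380 in the double knockdown. For 9 cardiomyocyte markers it was 41844 to 73285, 49099 to 81273, 44473 to 82308 and 68419 to 91327 in the same order of groups. In the double knockdown 3 fibroblast markers rose and 3 fell, and 3 cardiomyocyte markers rose (33.3% called), where 17.1% of all genes rose, 15.6% fell and 32.8% were called. The summed level of 11 macrophage markers was 13371 to 19356 with negative siRNA, 11537 to 17569 under Yap siRNA, 7976 to 11985 under Wwtr1 siRNA and 4633 to 29711 in the double knockdown. Of 10 interferon-induced genes, the number that rose was 10 under Yap siRNA, 9 under Wwtr1 siRNA and 10 in the double knockdown. Over all genes, 4.80%, 8.96% and 32.8% were called in these comparisons. The summed level of these 10 interferon-induced genes was 5614 to 9775 with negative siRNA and 23913 to 68709 under Yap siRNA. It was 19488 to 89805 under Wwtr1 siRNA and 96565 to 127254 in the double knockdown. The part that these shifts play in the results below was not tested.

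Fgf7 reached the minimum mean of 10 normalized counts for testing only through the groups where it is high, so it is described by its values and left out of the counts that follow. Of the 9 other genes, 5 passed the test in the double knockdown, where 32.8% of all 11871 genes tested did. The test was limma on log2(normalized count + 1), with a Benjamini-Hochberg adjusted p under 0.05 as the threshold. Pdgfra rose (17.1% of all genes did), and Pdgfa, Pdgfd, Fgf2 and Vegfc fell (15.6% of all genes did). Under Yap siRNA 1 of the 9 passed, Vegfc lower, where 4.80% of all genes did. Under Wwtr1 siRNA 1 of the 9 passed, Pdgfrb higher, where 8.96% of all genes did. Pdgfc, Fgfr1 and Vegfa passed in none of the 3 comparisons with negative siRNA in this fit. With the replicate number as a block and without the double knockdown, 4 of the 9 passed under Yap siRNA. Under Wwtr1 siRNA 4 of the 9 also passed there, Fgfr1 among them. That fit called 1904 of all 11871 genes under Yap siRNA and 2527 under Wwtr1 siRNA. In bulk RNA, fewer cells of a type and less RNA per cell cannot be told apart.

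**Figure D1:**
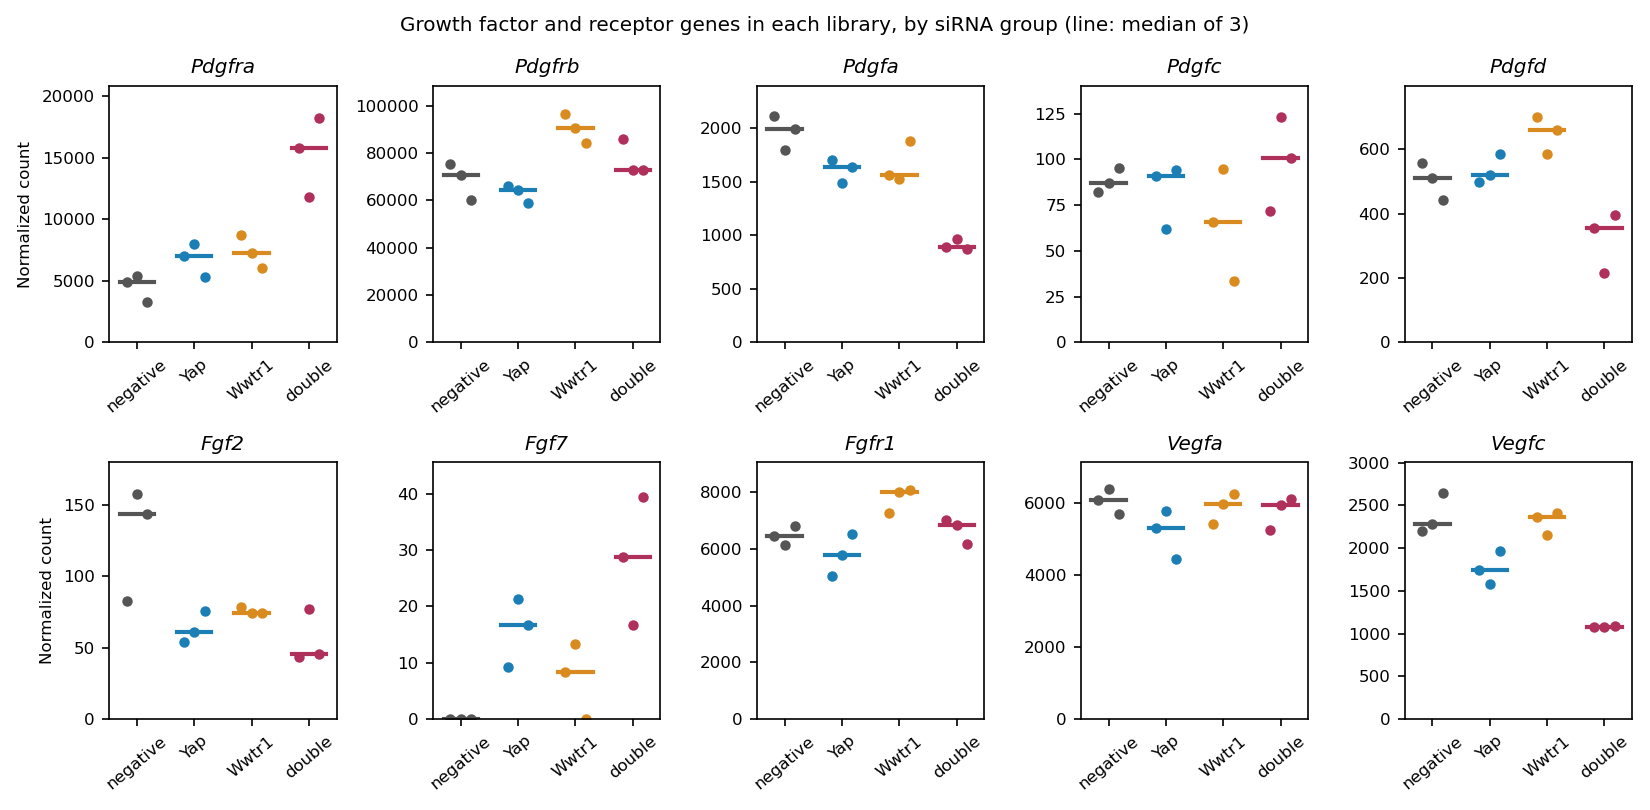
Normalized count (vertical axis, from 0) of each of the 10 genes in every library, by siRNA group on the horizontal axis, with a line at the median of 3 libraries. Pdgfra in the double knockdown (11844 to 18203) lies above every other library, and Pdgfa (867 to 962) and Vegfc (1071 to 1092) lie below every other library.

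RefSeq promoter windows on assembly GRCr8, reaching from 250 bases before to 50 bases after each annotated start, were matched by symbol for 8 of the 10 genes. Because Yap and TAZ act through TEAD factors, the windows were searched on both strands for the TEAD motif GGAATG, for the AP-1 motif TGANTCA and for the hypoxia response core ACGTG. The TEAD motif occurred in the windows of Fgf2 and Fgf7, where 14.2% of 33469 windows of that length hold it, and 11.2% of the 10144 windows of genes in the count table. The AP-1 motif occurred in the window of Pdgfra, where 7.33% of all windows and 5.06% of those of genes in the table hold it. The hypoxia response core occurred in the windows of Fgf2 and Pdgfd, where 19.3% of all windows and 25.0% of those of genes in the table hold it. None of the 3 motifs was found in the windows of Pdgfa, Pdgfc, Vegfa and Vegfc, which says only that these letters are not there. A match is a description of the letters and no evidence of binding, and the annotated starts were not checked against reads. The 250 bases before the start are shown for Pdgfa and Vegfc, which fell together in the double knockdown, and for Fgf2, which fell and whose window holds GGAATG. They lie at chr12:20759116-20759365 on the plus strand, chr16:44560888-44561137 on the minus strand and chr2:122164204-122164453 on the plus strand. They are written 5′ to 3′ along the gene, with capitals for a motif match. The GGAATG match of Fgf2 begins 8 bases into the transcript, past the bases shown, so the capitals there mark ACGTG.
Pdgfa: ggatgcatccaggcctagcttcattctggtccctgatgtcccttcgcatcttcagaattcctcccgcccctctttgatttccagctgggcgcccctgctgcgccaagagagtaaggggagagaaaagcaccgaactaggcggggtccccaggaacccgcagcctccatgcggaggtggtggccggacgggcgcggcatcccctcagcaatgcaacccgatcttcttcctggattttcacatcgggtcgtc
Vegfc: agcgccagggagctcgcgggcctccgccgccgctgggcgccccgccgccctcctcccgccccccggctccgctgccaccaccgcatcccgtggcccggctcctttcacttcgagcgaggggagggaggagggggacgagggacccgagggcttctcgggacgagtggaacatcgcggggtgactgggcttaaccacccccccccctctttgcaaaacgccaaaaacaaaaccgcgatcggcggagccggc
Fgf2: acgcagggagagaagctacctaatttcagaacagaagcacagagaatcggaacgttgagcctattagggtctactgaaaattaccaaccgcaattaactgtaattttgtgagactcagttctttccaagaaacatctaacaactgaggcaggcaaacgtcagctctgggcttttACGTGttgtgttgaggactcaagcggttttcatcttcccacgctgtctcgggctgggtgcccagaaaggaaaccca

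Among the receptors, Pdgfra, the PDGF alpha receptor and a widely used marker of fibroblasts, had the largest log2 rise of the 9 genes that were not listed at 0 in a whole group. Its normalized counts were 4898, 5420 and 3296 with negative siRNA, 6999, 8013 and 5289 under Yap siRNA, 8734, 7265 and 6016 under Wwtr1 siRNA, compared with 15774, 11844 and 18203 in the double knockdown. All 3 double knockdown libraries lay above all 9 others, and the Wwtr1 libraries lay above the negative libraries, while 1 Yap library lay within their range. The double knockdown mean was 3.37 times that with negative siRNA, with a log2 fold change of 1.76 ± 0.22 (SE, n = 3 per group, adjusted p = 0.000137). Under Yap siRNA the log2 fold change was 0.59 (95% interval 0.11 to 1.07, adjusted p = 0.160), and under Wwtr1 siRNA it was 0.71 (0.23 to 1.19, adjusted p = 0.0678). Fitted with the replicate number as a block and without the double knockdown, these single knockdown differences had adjusted p-values of 0.00146 and 0.000341. The Wwtr1 difference also passed with DESeq2 on recovered reads (log2 0.69, adjusted p = 0.0121) and when double knockdown replicate 3 was left out (log2 0.71, adjusted p = 0.0480). The double knockdown was higher than Yap siRNA by a log2 value of 1.17 (adjusted p = 0.00538) and higher than Wwtr1 siRNA by 1.05 (adjusted p = 0.00653). In order of level, negative, Yap and Wwtr1 siRNA were not separated from their neighbours by the test, and the double knockdown was.

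Pdgfrb, the PDGF beta receptor of fibroblasts and pericytes, followed another order. Its normalized counts were 75291, 70737 and 60220 with negative siRNA, 66206, 64529 and 59094 under Yap siRNA, 96613, 90483 and 84369 under Wwtr1 siRNA, compared with 85796, 72945 and 72642 in the double knockdown. The Wwtr1 libraries lay above all negative and Yap libraries and overlapped with the double knockdown. The rise under Wwtr1 siRNA had a log2 value of 0.40 ± 0.10 (SE, n = 3 per group, adjusted p = 0.0335). This call was lost without negative replicate 2 (log2 0.42, adjusted p = 0.0685), negative replicate 3 (0.31, 0.127), Wwtr1 replicate 1 (0.35, 0.124) or Wwtr1 replicate 2 (0.40, 0.103), and in the fit without trend (adjusted p = 0.0513). Yap siRNA gave a level lower than Wwtr1 siRNA by a log2 value of -0.52 (adjusted p = 0.0113), and 3 of the 9 genes passed in that comparison against 8.79% of all genes. The double knockdown value was 0.17 on the log2 scale (95% interval -0.06 to 0.39, adjusted p = 0.238), so a change beyond 0.39 lay outside the interval.

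Fgfr1, the main FGF receptor of mesenchymal cells, stood at 6459, 6145 and 6804 normalized counts with negative siRNA, at 5027, 5771 and 6524 under Yap siRNA, at 7262, 8015 and 8070 under Wwtr1 siRNA, and at 7010, 6830 and 6163 in the double knockdown. Like those of Pdgfrb, its Wwtr1 libraries were higher than all negative and Yap libraries. The difference between Yap and Wwtr1 siRNA had a log2 value of -0.44 ± 0.09 (SE, adjusted p = 0.0154). That call was lost without Yap replicate 1 (-0.34, adjusted p = 0.0529), Wwtr1 replicate 2 (-0.41, 0.0635) or Wwtr1 replicate 3 (-0.41, 0.0580). Against negative siRNA the log2 fold change was -0.17 under Yap siRNA (adjusted p = 0.344), 0.27 under Wwtr1 siRNA (adjusted p = 0.104) and 0.04 in the double knockdown (95% interval -0.16 to 0.25, adjusted p = 0.761). In the blocked fit without the double knockdown the Wwtr1 difference passed (adjusted p = 0.0178), as it did in the fit to the compared groups only (adjusted p = 0.0473).

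**Figure D2:**
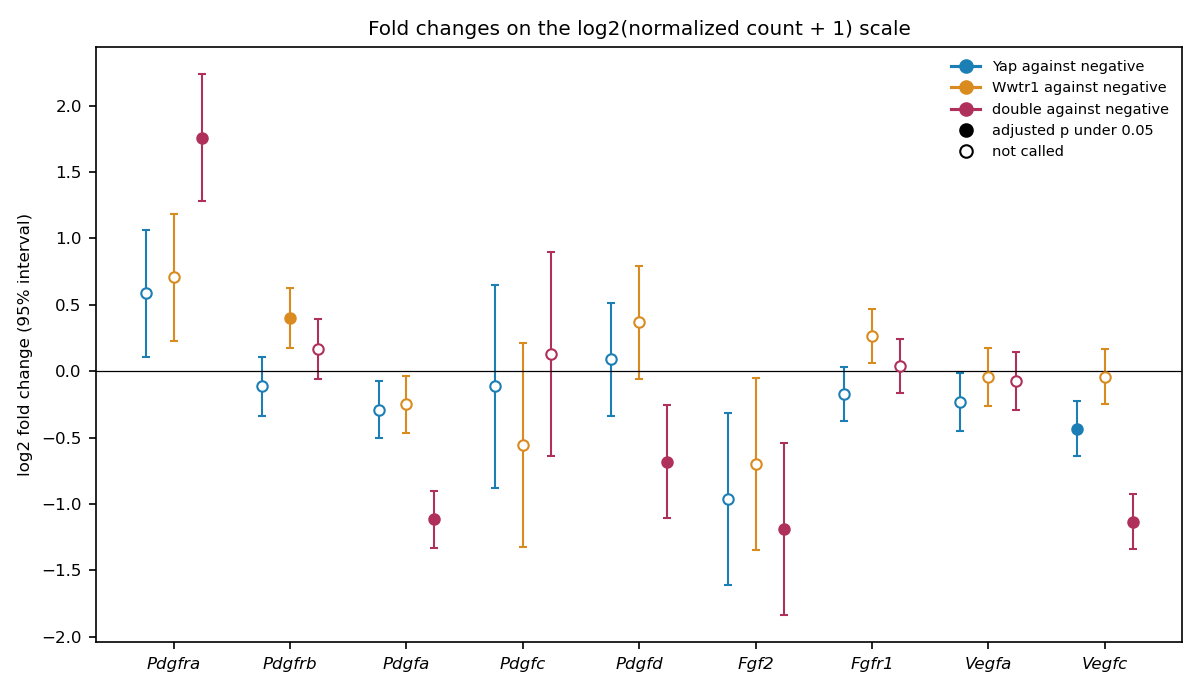
Log2 fold change against negative siRNA with its 95% interval (vertical axis) for 9 genes (horizontal axis) and 3 comparisons in colour, with filled points where the adjusted p was under 0.05. In the double knockdown Pdgfra (1.76) rose, and Pdgfa (-1.12), Pdgfd (-0.68), Fgf2 (-1.19) and Vegfc (-1.13) fell, and Fgf7, listed at 0 with negative siRNA, is left out.

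Of the PDGF ligands, Pdgfa fell most clearly. Pdgfa encodes the A chain, the principal ligand of the alpha receptor. Its normalized counts were 2112, 1792 and 1994 with negative siRNA, 1706, 1485 and 1632 under Yap siRNA, 1562, 1529 and 1882 under Wwtr1 siRNA, compared with 888, 962 and 867 in the double knockdown. The double knockdown libraries were lower than all 9 others, and the Yap libraries were lower than all negative libraries. The double knockdown mean was 0.461 times that with negative siRNA, with a log2 fold change of -1.12 ± 0.10 (SE, n = 3 per group, adjusted p = 1.96e-05). The single knockdowns gave log2 fold changes of -0.29 (95% interval -0.50 to -0.07, adjusted p = 0.127) under Yap siRNA and -0.25 (-0.46 to -0.03, adjusted p = 0.151) under Wwtr1 siRNA. In the blocked fit without the double knockdown both passed, with adjusted p-values of 0.0301 and 0.0451. Pdgfa was lower in the double knockdown than under Yap siRNA by a log2 value of -0.83 (adjusted p = 0.000468) and than under Wwtr1 siRNA by -0.87 (adjusted p = 0.000260). The A chain and the alpha receptor thus moved in opposite directions in the double knockdown.

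Pdgfd encodes a ligand of the beta receptor that is secreted in a latent form. It stood at 558, 509 and 442 normalized counts with negative siRNA, at 497, 520 and 586 under Yap siRNA, at 699, 586 and 661 under Wwtr1 siRNA, and at 355, 215 and 397 in the double knockdown. The double knockdown libraries were below all others and the Wwtr1 libraries were above all negative libraries. Pdgfd fell in the double knockdown by 0.68 on the log2 scale (SE 0.20, n = 3 per group, adjusted p = 0.0189). Without negative replicate 1 the log2 value was -0.60 (adjusted p = 0.0659) and without negative replicate 2 it was -0.67 (adjusted p = 0.0501), and both fits lost the call, as did the fit to the compared groups only (adjusted p = 0.0723). Without double knockdown replicate 2, the lowest library, the log2 value was -0.42 (adjusted p = 0.0449). Under Wwtr1 siRNA the log2 fold change was 0.37 (95% interval -0.06 to 0.79, adjusted p = 0.280). The difference between the double knockdown and Wwtr1 siRNA was the larger one, at -1.05 (adjusted p = 0.00356). Against Yap siRNA it was -0.77 (adjusted p = 0.0229), a call lost without Yap replicate 2 (-0.79, adjusted p = 0.0514) or Yap replicate 3 (-0.70, 0.0928) and in the fit to the compared groups only (adjusted p = 0.0909). Without double knockdown replicate 2 it was -0.51 (adjusted p = 0.0431).

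Pdgfc, another ligand of the alpha receptor, was counted at 82, 87 and 95 with negative siRNA, at 91, 62 and 94 under Yap siRNA, at 66, 95 and 34 under Wwtr1 siRNA, and at 72, 123 and 101 in the double knockdown. All groups overlapped. The log2 fold changes were -0.11, -0.56 and 0.13, each with an SE of 0.35 and adjusted p-values of 0.903, 0.375 and 0.812. It rested on 33 to 147 recovered reads per library, and its 95% interval in the double knockdown ran from -0.64 to 0.89.

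Of the FGF ligands, Fgf2, the basic FGF that is a strong fibroblast mitogen, fell in the double knockdown. Its normalized counts were 83, 158 and 144 with negative siRNA, 54, 61 and 75 under Yap siRNA, 78, 74 and 74 under Wwtr1 siRNA, compared with 44, 77 and 46 in the double knockdown. Every library of the 3 knockdown groups was below every negative library, with the closest gap between negative replicate 1 at 83 and Wwtr1 replicate 1 at 78. Its double knockdown value was -1.19 ± 0.30 on the log2 scale (SE, n = 3 per group, adjusted p = 0.00954). Under Yap siRNA it was -0.96 (95% interval -1.61 to -0.31, adjusted p = 0.0946), and under Wwtr1 siRNA -0.70 (-1.35 to -0.05, adjusted p = 0.177). The Yap difference passed in the blocked fit without the double knockdown (adjusted p = 0.0254), with DESeq2 on recovered reads (log2 -1.01, adjusted p = 0.0363) and without negative replicate 1 (log2 -1.24, adjusted p = 0.0483). The double knockdown did not pass against either single knockdown, with log2 differences of -0.23 (-0.88 to 0.42) from Yap siRNA and -0.49 (-1.14 to 0.16) from Wwtr1 siRNA. Fgf2 rested on 44 to 158 recovered reads per library.

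Fgf7, also known as keratinocyte growth factor, is a stromal factor that acts on epithelial FGF receptors. It was listed at 0 in all 3 libraries with negative siRNA and in Wwtr1 replicate 3. The other values were 9.22, 21.4 and 16.8 normalized counts under Yap siRNA, 8.35 and 13.3 under Wwtr1 siRNA, compared with 28.8, 16.7 and 39.5 in the double knockdown. All 6 Yap and double knockdown libraries were above all negative libraries. Its overall mean of 12.8 normalized counts passed the minimum of 10 only through the groups where it is high, so no test result is given. No fold is given, because the reference is listed at 0. A 0 in this table can be a failed estimate, since in 6 cases a gene was listed at 0 in 1 library with more than 100 normalized counts in both other libraries of its group. The highest library held 45 recovered reads.

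Of the VEGF ligands, Vegfc fell and Vegfa did not pass in any comparison. Vegfc stood at 2196, 2288 and 2651 normalized counts with negative siRNA, at 1745, 1585 and 1962 under Yap siRNA, at 2360, 2153 and 2410 under Wwtr1 siRNA, and at 1077, 1071 and 1092 in the double knockdown. Its groups formed 3 separate levels, with the negative and Wwtr1 libraries overlapping at the top, the Yap libraries below all of them, and the double knockdown libraries lowest. The double knockdown mean was 0.454 times that with negative siRNA, with a log2 fold change of -1.13 ± 0.09 (SE, n = 3 per group, adjusted p = 1.26e-05). Under Yap siRNA the log2 fold change was -0.43 ± 0.09 (adjusted p = 0.0272), and under Wwtr1 siRNA it was -0.04 (95% interval -0.25 to 0.16, adjusted p = 0.839). The Yap call was lost without negative replicate 2 (-0.46, adjusted p = 0.0597), negative replicate 3 (-0.35, 0.119), Yap replicate 1 (-0.43, 0.0956) or Yap replicate 2 (-0.36, 0.107), in the fit to the compared groups only (adjusted p = 0.0647) and without trend (adjusted p = 0.0532). Yap siRNA also gave a lower level than Wwtr1 siRNA (log2 -0.39, adjusted p = 0.0257), a call lost without Yap replicate 1 (-0.39, adjusted p = 0.0763), Yap replicate 2 (-0.32, 0.0905), Wwtr1 replicate 1 (-0.37, 0.0748) or Wwtr1 replicate 3 (-0.36, 0.0912). The double knockdown was lower than Yap siRNA by -0.70 (adjusted p = 0.000882) and than Wwtr1 siRNA by -1.09 (adjusted p = 6.91e-05).

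Vegfa, the hypoxia-induced factor of blood vessel growth, stood at 6084, 6371 and 5675 normalized counts with negative siRNA, at 5304, 5781 and 4449 under Yap siRNA, at 5413, 5968 and 6229 under Wwtr1 siRNA, and at 5242, 5934 and 6099 in the double knockdown. All 4 groups overlapped. Its double knockdown value was -0.07 on the log2 scale (95% interval -0.29 to 0.15, adjusted p = 0.624), which leaves changes beyond 0.29 outside the interval. Under Yap siRNA it was -0.23 (-0.45 to -0.01, adjusted p = 0.227), and under Wwtr1 siRNA -0.04 (-0.26 to 0.17, adjusted p = 0.838). The fall of Vegfc, at -1.13, is outside that double knockdown interval.

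The double knockdown was next set against each single knockdown and against the sum of both. Each target remained higher in the double knockdown than under its own siRNA alone. The part that this plays in the differences below was not tested. Against Yap siRNA 4 of the 9 genes passed (13.8% of all genes did), namely Pdgfra, Pdgfa, Pdgfd and Vegfc. The same 4 genes passed against Wwtr1 siRNA, where 19.9% of all genes did. The interaction term, the double knockdown change minus the sum of the 2 single changes on the log2 scale, passed for 1 of the 9 genes, against 1.03% of all genes. That gene was Vegfc, whose single changes summed to -0.47 where the double knockdown gave -1.13, a difference of -0.66 ± 0.13 (SE, adjusted p = 0.0432). When single libraries were left out, 9 of the 12 fits no longer made this call, with differences of -0.74 to -0.58 over all 12 and adjusted p-values up to 0.108. It was kept without negative replicate 3, Yap replicate 2 or double knockdown replicate 3. Pdgfa and Pdgfd had differences of -0.58 (95% interval -0.88 to -0.27) and -1.14 (-1.74 to -0.54), both with an adjusted p of 0.0715 (0.00977 and 0.00737 with DESeq2 on recovered reads). Without double knockdown replicate 3 the difference of Pdgfd was -1.31 and passed (adjusted p = 0.0334). For Pdgfd the single changes summed to 0.46, so the double knockdown lay on the other side of zero from that sum. Neither single change of Pdgfd passed, at 0.09 (95% interval -0.34 to 0.52) under Yap siRNA and 0.37 (-0.06 to 0.79) under Wwtr1 siRNA. The sign of their sum was not tested. Pdgfra changed by 1.76 where the single changes summed to 1.30, a difference of 0.46 with an interval of -0.21 to 1.14 (adjusted p = 0.561). For Fgf2 the sum was -1.66 and the double knockdown -1.19, a difference of 0.47 with an interval of -0.45 to 1.39 (adjusted p = 0.685).

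**Figure D3:**
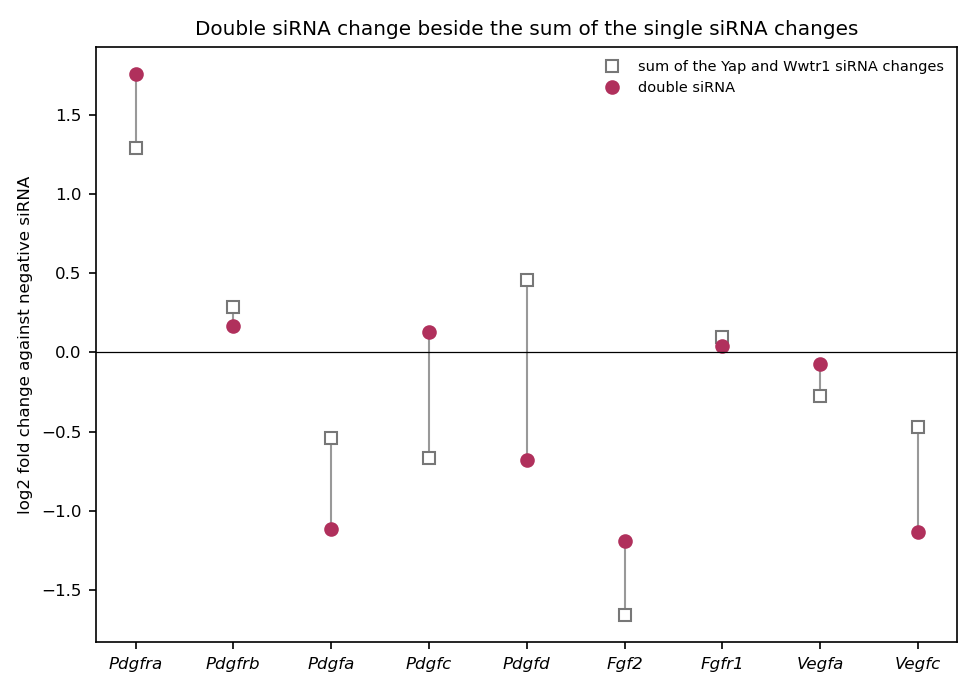
Log2 fold change against negative siRNA (vertical axis) of 9 genes (horizontal axis), with open squares for the sum of the Yap and Wwtr1 siRNA changes and filled circles for the double knockdown. The circle lies below the square for Vegfc (-1.13 against -0.47), Pdgfa (-1.12 against -0.54) and Pdgfd (-0.68 against 0.46).

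The other genes of these pathways were taken from 4 lists with 85 symbols, of which 76 were in the table and 75 were tested. Of these, 17 were higher and 15 lower in the double knockdown (42.7% called, against 32.8% of all genes, median log2 fold change 0.11). Wwtr1 siRNA raised 7 and lowered 4 (8.96% of all genes were called there), and Yap siRNA raised 2 (4.80% of all genes). Over all genes tested the median log2 fold change was 0.00 in each of these comparisons.

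Among 22 further ligands and receptors tested, 3 rose and 2 fell in the double knockdown, a called share of 22.7% that is below the 32.8% of all genes. Fgfr3, an FGF receptor, stood at 2375, 2165 and 2410 normalized counts with negative siRNA, at 1349, 1588 and 1930 under Yap siRNA, at 928, 1028 and 1400 under Wwtr1 siRNA, and at 621, 728 and 1200 in the double knockdown. It fell by 1.07 on the log2 scale under Wwtr1 siRNA (adjusted p = 0.0118) and by 1.50 in the double knockdown (adjusted p = 0.000424), while its Yap siRNA value was -0.53 (adjusted p = 0.218, or 0.00644 in the blocked fit without the double knockdown). The Wwtr1 call was lost without Wwtr1 replicate 1 (-0.95, adjusted p = 0.0554) or Wwtr1 replicate 2 (-1.02, 0.0516). Fgf1, the acidic FGF, rose under Wwtr1 siRNA (log2 0.85, adjusted p = 0.0381) and in the double knockdown (0.70, adjusted p = 0.0327). Its Wwtr1 call was lost without negative replicate 2 (0.67, adjusted p = 0.130) or 3 (0.86, 0.0973), Wwtr1 replicate 1 (0.68, 0.154) or 2 (0.89, 0.0958), or double knockdown replicate 2 (0.85, 0.0521). Its double knockdown call was lost without negative replicate 2 (0.53, adjusted p = 0.122) or 3 (0.72, 0.0750), or double knockdown replicate 1 (0.63, 0.0966) or 2 (0.75, 0.0580). The fit to the compared groups only lost both Fgf1 calls, with an adjusted p of 0.0668 for Wwtr1 siRNA and 0.0666 for the double knockdown. Pdgfrl, which encodes a receptor-like protein, rose in all 3 comparisons, by log2 values of 0.43, 0.60 and 0.45 (adjusted p-values of 0.0272, 0.00259 and 0.00358). The first of these calls was lost without negative replicate 2 (0.39, adjusted p = 0.0905) or 3 (0.40, 0.112), or Yap replicate 1 (0.43, 0.0956) or 2 (0.39, 0.105). Kdr, the main endothelial VEGF receptor, was chosen after its values were seen. It was counted at 50.3, 80.0 and 33.1 with negative siRNA and at 193, 204 and 147 in the double knockdown, a rise of 1.79 on the log2 scale (adjusted p = 0.00325). Of 9 endothelial marker genes that do not include Kdr, 4 rose in the double knockdown (44.4%, where 17.1% of all genes rose), with a summed level of 1611 to 2570 against 1187 to 1523 with negative siRNA. The part of this marker shift in the Kdr value was not tested. The other beta receptor ligand, Pdgfb, also chosen after its values were seen, stood at 200, 214 and 251 with negative siRNA and at 134, 153 and 347 in the double knockdown (log2 -0.20, adjusted p = 0.657). Without double knockdown replicate 3 it passed as lower (-0.62, adjusted p = 0.0313), and without double knockdown replicate 1 the value was 0.06.

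Of the 22 tested genes of signal transduction, 6 rose and 5 fell in the double knockdown (50% called, against 32.8% of all genes). Rasa1, a GTPase-activating protein that turns Ras off, rose in all 3 comparisons, by log2 values of 0.37 under Yap siRNA (adjusted p = 0.0407), 0.42 under Wwtr1 siRNA (adjusted p = 0.0127) and 0.42 in the double knockdown (adjusted p = 0.00396). The Yap call was lost in 9 of 12 fits that left out a library, with log2 values of 0.33 to 0.42 and adjusted p-values up to 0.153, and was kept without Wwtr1 replicate 1 or double knockdown replicates 1 or 3. The fit without trend lost the Yap call as well (adjusted p = 0.0781). The Wwtr1 call was lost without negative replicate 3 (0.38, adjusted p = 0.0597) or Wwtr1 replicate 1 (0.37, 0.0601). No gene of the list exceeded an absolute log2 fold change of 0.63 among those called in the double knockdown.

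The feedback and response list, 19 genes that FGF and MAP kinase signalling is known to induce, had 5 genes higher and 4 lower in the double knockdown (47.4% called, against 32.8% of all genes). Its members moved in both directions. Spry1, a Sprouty inhibitor of receptor tyrosine kinase signalling, stood at 3478, 2657 and 3352 normalized counts with negative siRNA, at 2454, 2734 and 3056 under Yap siRNA, at 1652, 1629 and 1652 under Wwtr1 siRNA, and at 1031, 1247 and 1295 in the double knockdown. It fell by 0.93 under Wwtr1 siRNA (adjusted p = 0.00107) and by 1.40 in the double knockdown (adjusted p = 1.50e-05). Spry4, another Sprouty gene, fell by 0.96 in the double knockdown (adjusted p = 0.0217). Its value was -0.81 without negative replicate 3, which lost the call (adjusted p = 0.0882), as did the fit to the compared groups only (adjusted p = 0.0625), and -0.58 without double knockdown replicate 3 (adjusted p = 0.0422). Etv1 (log2 1.46, adjusted p = 0.00448) and Etv4 (0.77, adjusted p = 0.0435), transcription factors of the PEA3 group, and Dusp5, a nuclear ERK phosphatase (1.11, adjusted p = 0.00654), rose there. Etv4 and Phlda1 also rose under Wwtr1 siRNA, by log2 values of 1.05 (adjusted p = 0.0301) and 0.81 (adjusted p = 0.00585). The double knockdown call of Etv4 was lost in 8 of 12 fits without a library, namely without negative replicate 1 or 2, Yap replicate 3, any Wwtr1 replicate, or double knockdown replicate 1 or 2 (log2 0.56 to 0.77, adjusted p up to 0.160), with upper-quartile scaling (0.73, adjusted p = 0.0526), with the compared groups only (adjusted p = 0.104) and without trend (adjusted p = 0.0713). Its Wwtr1 call was lost without negative replicate 1 or 2 or any Wwtr1 replicate (0.89 to 1.12, adjusted p up to 0.106) and without trend (adjusted p = 0.0592).

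Of 12 hypoxia-responsive genes, the class to which Vegfa belongs, 3 rose and 4 fell in the double knockdown (58.3% called, against 32.8% of all genes). Egln3, a prolyl hydroxylase that marks hypoxia-inducible factor for decay, stood at 268, 338 and 186 normalized counts with negative siRNA and at 895, 983 and 682 in the double knockdown. It rose by 1.71 on the log2 scale (adjusted p = 0.00106). Pdk1, a kinase that restrains pyruvate dehydrogenase, fell by 0.44 under Wwtr1 siRNA (adjusted p = 0.0361). Its call was lost without any of the negative replicates or without Wwtr1 replicate 2 or 3, with log2 values of -0.47 to -0.36 and adjusted p-values up to 0.145.

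**Figure D4:**
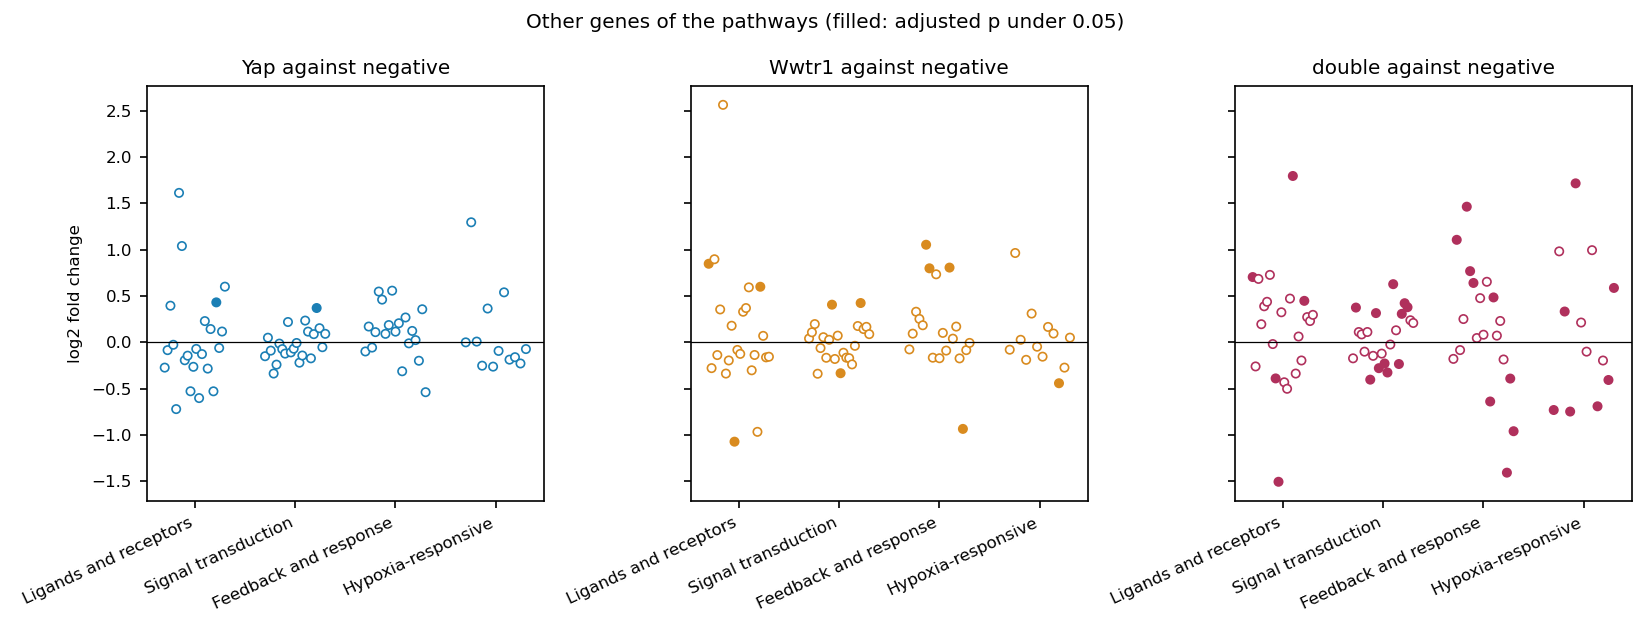
Log2 fold change against negative siRNA (vertical axis) of 75 further pathway genes in 4 lists (horizontal axis), 1 panel per comparison, with filled points where the adjusted p was under 0.05. In the double knockdown 17 genes are filled above zero and 15 below, with Kdr (1.79) and Egln3 (1.71) at the top and Fgfr3 (-1.50) and Spry1 (-1.40) at the bottom.

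Over the 12 libraries the log2 levels of the members were set against each other as a description, since all points come from 4 treatments and share libraries. Pdgfa correlated with Vegfc at a Pearson r of 0.93, and Pdgfra correlated with Pdgfa at -0.94 and with Vegfc at -0.87. Without Fgf7, no other pair of members exceeded 0.8 in size, and Vegfa stayed between -0.16 and 0.30 with the rest. The genes most like each member, among those tested whose mean reached 100 normalized counts, were found in the same way. For Pdgfra they were Npy (r = 0.98), the neuropeptide Y gene, and Mgst1 (0.98), a microsomal glutathione transferase. For Pdgfa they were Ccn5 (0.98), a matricellular gene, and Rack1 (0.98), a ribosomal scaffold protein. For Vegfc they were Fads3 (0.98) and Nars1 (0.98), an asparagine tRNA synthetase. Pdgfrb was most like Tmem126a (0.94) and Ebpl (0.92), Fgfr1 most like Lamc1 (0.95), a laminin chain, and Sephs1 (0.94), and Pdgfd most like Hypk (0.93) and Hs6st2 (0.91). Fgf2 was most like Glrx3 (0.93) and Ocrl (0.93), and Fgf7 most like Inpp1 (0.94) and Layn (0.93). Pdgfc and Vegfa had no close partner, with an r of 0.86 for Pdgfc with Leprot, 0.85 for Pdgfc with Cyb561d1 and 0.82 for Vegfa with Lmbr1.

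Pdgfrb is also expressed by pericytes. Of 8 smooth muscle and pericyte markers, 4 rose and 2 fell in the double knockdown (75% called, against 32.8% of all genes), and 1 fell under Yap siRNA (12.5%, against 4.80%). Under Wwtr1 siRNA, where 8.96% of all genes were called, 0 of these 8 markers were, with a median log2 fold change of 0.04. Their summed level was 45024 to 60197 with negative siRNA, 31568 to 41462 under Yap siRNA, 51988 to 72284 under Wwtr1 siRNA and 33238 to 48942 in the double knockdown, and no marker was at 0 in all libraries of a group. The part of these cells in the Pdgfrb value was not tested. Of the 11 macrophage markers, 1 fell in the double knockdown (9.09%, where 15.6% of all genes fell).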

How the data were processed

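RNA was sequenced from 12 libraries of cultured neonatal rat cardiac fibroblasts in 4 siRNA groups of 3, with groups and replicate numbers taken from the sample titles. According to the methods and the submitters' processing notes, the authors trimmed reads with Trim Galore 0.6.5, aligned them to build rn6 with HISAT2, estimated abundance with StringTie and normalized with DESeq2. The deposited signal values are normalized counts, that is, counts divided by a size factor per library. All 147252 values (100%) were whole multiples of a step per library within 0.001, and multiplication gave totals of 33.9 to 41.1 M, called reads here although their unit is not stated and they exceed the depth given by the study. Strand use in counting was not given in the sources used here. The authors' own fold changes and p-values were deposited as well and were not used. Levels were not compared between genes, because transcript lengths were not used here.

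Values were transformed to log2(normalized count + 1), and limma 3.58.1 (R 4.3.3) was fitted with a variance trend to all 12 libraries and the 11871 genes with a mean of at least 10, without covariates. All 10 members passed that filter, Fgf7 only through the groups where it is high. Counts of members were planned over all 10 and are given over the other 9, a choice made after the values of Fgf7 were seen. A gene was called at a two-sided Benjamini-Hochberg adjusted p under 0.05 over all genes tested. Fold changes on this scale understate the change of low genes. The procedure was tested on simulated data. Named genes were the 10 members, both targets, for each comparison the called pathway genes averaging at least 100 that rose most (up to 3) and fell most (up to 3), and the 2 genes most correlated with each member, of which 1 is not reported here. Kdr and Pdgfb were named after their values were seen. The members and lists were chosen with earlier results of these data known.

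On recovered reads, edgeR 4.0.16 called 536, 1039 and 3864 genes for Yap, Wwtr1 and double siRNA against negative siRNA, and DESeq2 1.42.0 served as another alternative. Further alternatives were pseudocounts of 0.1 and 10, no filter or a mean of at least 100, other scalings, fits to the compared groups only or without trend, a replicate block, and fits lacking 1 library each. Sampling noise was smaller than the differences between replicates. Same-numbered negative, Yap and Wwtr1 libraries deviated together (9 correlations of 0.104 to 0.276), whereas those with the double knockdown did not (-0.127 to 0.180), so the block was read in a fit without the double knockdown. Pairing was inferred from these correlations, and the methods describe replicates as separate litters. Promoter windows are RefSeq sequences on GRCr8, which differs from the build of the files.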

Additional observations from a re-analysis of the deposited data

Results flagged for a closer look

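In the main analysis the change of Vegfc in the double knockdown differed from the sum of its changes under Yap siRNA and Wwtr1 siRNA. All 3 double knockdown libraries were lower than all 9 others, which by itself does not show a departure from the sum. The interaction had a log2 value of -0.66 with an adjusted p of 0.0432 (limma). The call was lost in 9 of 12 fits that left out a library and in the fit without trend (adjusted p = 0.0809). Dixon's test for outlying libraries was not run.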

How the results depend on the processing

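In the double knockdown the calls of Pdgfra, Pdgfa and Vegfc held under every alternative run, and that of Fgf2 under every alternative that tested it (its mean is under 100 normalized counts). Numbers of members are over the 9 genes other than Fgf7. The number called with Yap siRNA (1 in the main analysis) was 2 with DESeq2 (Fgf2 and Vegfc), 0 with the compared groups only and 0 without trend. With Wwtr1 siRNA (1 member) it was 2 with DESeq2 (Pdgfra and Pdgfrb), 2 with the compared groups only (Fgfr1 and Pdgfrb) and 0 without trend. For the interaction (1 member) it was 3 with DESeq2 (Pdgfa, Pdgfd and Vegfc) and 0 without trend. Of the pathway genes under Yap siRNA (2), DESeq2 called 4, the fit without trend 1 and the fit without the double libraries and with no block (an alternative chosen after seeing the data) 4. Over all genes, Yap siRNA (570) gave 1013 with DESeq2 and 294 without trend, the interaction (122) gave 500 and 60, and the double knockdown against Yap siRNA (1637) gave 774 with the compared groups only.

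In the replicate block fitted to all 12 libraries, Yap siRNA gave 874 genes and 6 pathway genes and the interaction 231 genes. In the replicate block without the double libraries, Yap siRNA gave 1904 genes, 4 members and 15 pathway genes, Wwtr1 siRNA gave 2527 genes, 4 members and 18 pathway genes, and Yap against Wwtr1 siRNA (1044) gave 2680 genes. In the block over all 12 libraries Pdgfrb also passed in the double knockdown against Yap siRNA (adjusted p = 0.0229) and against Wwtr1 siRNA (adjusted p = 0.0398), and DESeq2 called it against Yap siRNA (adjusted p = 0.0334). The block changed no other call of these 9 members than those named here and beside the results.

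Leaving out each library in turn, Yap siRNA gave 111 to 764 genes, 0 to 2 members and 0 to 4 pathway genes. Wwtr1 siRNA gave 548 to 1419 genes, 0 to 2 members and 5 to 14 pathway genes. Yap against Wwtr1 siRNA gave 434 to 1409 genes and 1 to 3 members, the double knockdown gave 758 to 1873 genes against Yap siRNA and 1288 to 2340 against Wwtr1 siRNA, and the interaction gave 31 to 160 genes and 0 to 2 members. Some uncalled log2 differences changed sign when a library was left out. For Yap against Wwtr1 siRNA, Pdgfra ran from -0.256 to 0.0459 and Pdgfa from -0.0951 to 0.0547. With Wwtr1 siRNA, Vegfa ran from -0.0874 to 0.0143 and Vegfc from -0.0954 to 0.0404. Pdgfc ran from -0.221 to 0.0763 with Yap siRNA and from -0.0473 to 0.338 in the double knockdown. Vegfa in the double knockdown against Wwtr1 siRNA ran from -0.0856 to 0.0378, and the interaction of Fgfr1 from -0.149 to 0.0393. Pdgfb in the double knockdown ran from -0.619 to 0.0635. The causes were not tested. The alternatives for pathway genes were added after seeing which genes the rule named. No scaling moved the median of all genes by 0.1 or more. Fgf2, Fgf7 and Pdgfc rest on low counts.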
